A study of Xenopus laevis with 18 samples.

Results

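The transcripts described here are maternal RNAs of the African clawed frog Xenopus laevis whose mean level was at least 4-fold lower in the neurula stages than before the midblastula, and which came back in the tailbud embryo. Of 30993 Xenopus rows in the deposited table, 117 met this rule. It set a minimum mean of 10 TPM both for the pre-midblastula libraries (NF 0, 2, 6, 6.5 and 7) and for the tailbud libraries (NF 23, 26, 30 and 33). The mean of the neurula libraries (NF 14, 16, 18 and 20) had to lie at least 4-fold below both. NF is the Nieuwkoop and Faber staging series, and TPM is an abundance relative to 1000000 Xenopus transcripts per library. The rule used measured values, so the dip and the return themselves are descriptions and carry no test.

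The series holds 18 libraries of rRNA-depleted RNA from whole J strain embryos, with 1 library at each stage and no treatment. Per the labels, embryos were raised in dilute MMR saline with gentamycin and snap frozen. Besides the 5 pre-midblastula, 4 neurula and 4 tailbud libraries there were 3 blastula libraries (NF 8, 8.5 and 9) and 2 gastrula libraries (NF 10 and 12), which the rule did not use. By the stage labels no stage was sampled again, so every SD is a spread between neighbouring stages. The library with the stage label 8.5 is titled NF8_II, and its stage label was used. Unless a window is said to be fitted alone, a p-value is set against a spread pooled over windows. For gastrula against blastula it is the spread around the means of all 5 windows. For a slope it is the spread around the line of each window, to which the 2 gastrula libraries add nothing. The number of embryos per library is not stated in the labels.

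A frog egg is loaded with RNA made by the mother, and the embryo divides on this store before its own genome is switched on at the midblastula transition. Much of the store is then degraded, and later transcripts come from the embryo's own genome. In whole embryos, fewer cells that hold a transcript and less of it per cell cannot be told apart. Xenopus laevis also carries many genes as a pair of closely related copies, and reads shared between such copies may have been split between rows.

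The rows carry sequence names without gene symbols, and 0 of them matched the gene table used here. The function of each transcript, and any check of the embryos against marker genes, is thus not given. In 9 of the 18 deposited columns the values summed to more than 1000000, which is treated below as a possible batch. The deposited column names of NF 0 to NF 8 also end in rr, unlike those of all later stages. What rr stands for is not explained, and an effect of it was not tested. Spike-in RNA made up 41.9% ± 3.40 of the deposited total in pre-midblastula libraries (SD, n = 5), 35.3% ± 3.24 in neurula libraries and 22.2% ± 3.32 in tailbud libraries (SD, n = 4 each). Sequencing depth is unknown, and a row listed at 0 may be a failed estimate.

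On the TPM scale and by these limits, a 4-fold dip was common among maternal rows and a 4-fold return was rare. With each library divided by its spike-in total, 687 rows met the rule, so this rarity depends on the scale. A pre-midblastula mean of 10 TPM or more was found in 13280 rows, and 4351 of them, or 32.8%, dipped at least 4-fold by the neurula window. The 117 members were 2.69% of these dipping rows, of which 1359 had a tailbud mean of 10 TPM or more. The other 4234 dipping rows serve below as the set most like the members, because they passed the same limit on the way down. Their median level, averaged over the 4 libraries of a window, was 14.9% of the pre-midblastula mean in tailbud and 12.2% in neurula libraries. Members also had to lie at least 4-fold below their tailbud mean in neurula libraries, and their median there was 8.89%. The 2 sets thus differ by choice in the depth of the dip. A set of 444 lost rows met the same maternal minimum but had a tailbud mean under 1 TPM. It was not kept apart from the other dipping rows, so a row can be in both sets.

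Together the members made up 0.771% ± 0.0443 of the Xenopus total before the midblastula (SD, n = 5), 0.0672% ± 0.0173 in the neurula libraries and 0.426% ± 0.175 in the tailbud libraries (SD, n = 4 each). In between, the 3 blastula libraries had shares of 0.740%, 0.650% and 0.582%, followed by 0.330% for NF 10 and 0.123% for NF 12. The share was lowest at NF 14 with 0.0547% and stood at 0.640% at NF 33. The 5 most abundant members took between 32.7% and 42.2% of this sum at every stage. Without them the share averaged 0.488% in pre-midblastula, 0.0441% in neurula and 0.266% in tailbud libraries, so the other members took the same course. The median member had a mean of 26.9 TPM in the pre-midblastula window, 25.1 TPM in the blastula window, 10.9 TPM in the gastrula window, 2.94 TPM in the neurula window and 19.6 TPM in the tailbud window.

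**Figure D1:**
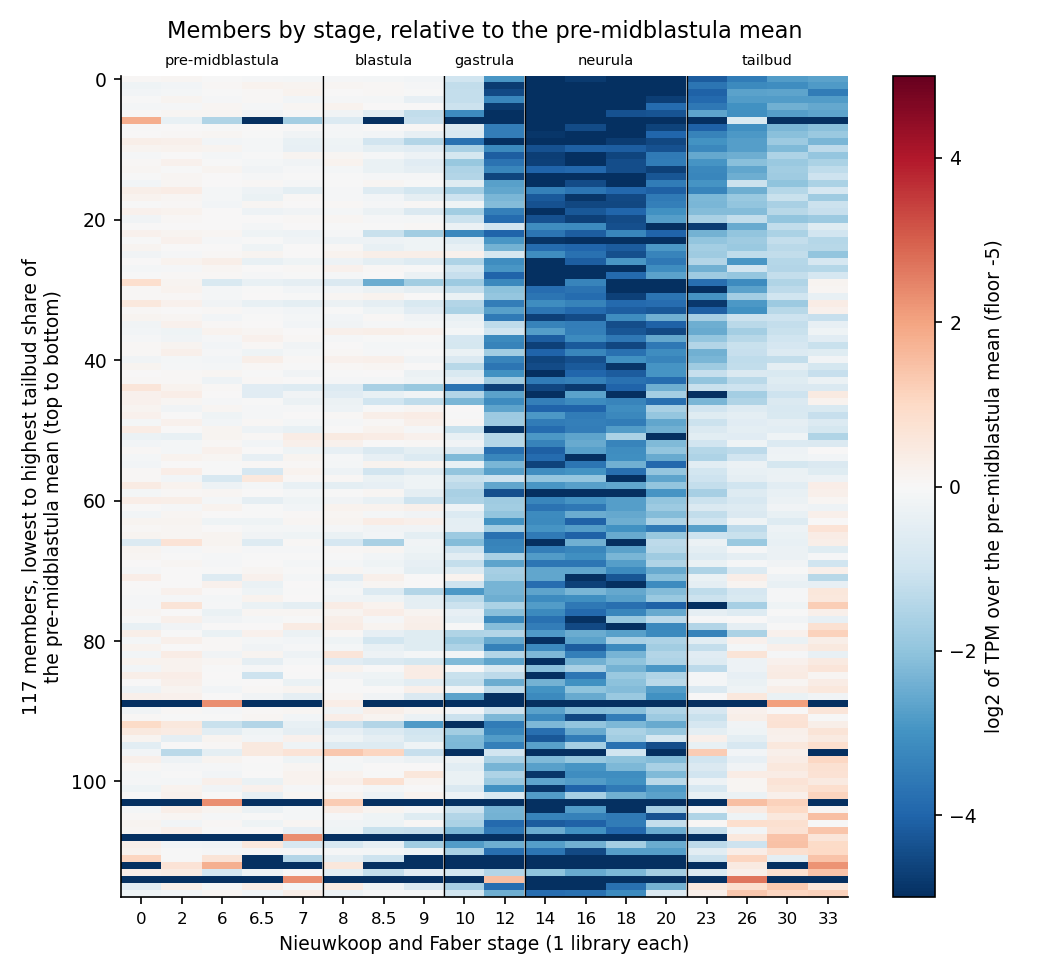
Each line is 1 of the 117 members and each column 1 library, coloured by the log2 of its TPM over the member's pre-midblastula mean. The blue block from NF 12 to NF 20 is the dip, and the red at lower right marks members whose tailbud level exceeded the maternal one. The few broken dark lines are rows listed at 0 in many libraries.

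Not every member had a steady course. In 9 of the 117 at least 1 pre-midblastula or tailbud library was listed at 0, and these 9 rows had between 3 and 15 zeros over the 18 libraries. In 4 of them a single pre-midblastula library carried the whole maternal mean, and in 3 a single tailbud library carried the whole return. All 4 neurula libraries were at 0 in 7 of the 9, and 5 of the 9 were listed at 0 at NF 0, so that only a later pre-midblastula library gave them their maternal mean. The remaining 108 members were above 0 in every pre-midblastula and tailbud library. In all of these 108 the 5 pre-midblastula libraries lay above the 4 neurula libraries, and in 100 the 4 tailbud libraries did so too. Counted over all 117 members, tailbud and neurula libraries did not overlap in 101, and pre-midblastula and neurula libraries did not overlap in 109. Among the 21670 rows that averaged 1 TPM or more these shares were 22.8% and 50.1%. For the other dipping rows they were 27.4% and 99.3%. The rule used both contrasts, so nothing follows from the differences.

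At the limits of the rule members passed into their neighbours without a break. The member closest to the 4-fold limit had a smaller fold of 4.02, with means of 217 TPM before the midblastula, 16.3 TPM in neurula and 65.5 TPM in tailbud libraries. The nearest row outside reached 3.99, with means of 20.0, 4.70 and 18.8 TPM in the same order. For the limit of 10 TPM, the nearest member had a tailbud mean of 10.003 TPM, and the nearest row outside had a pre-midblastula mean of 9.99 TPM. The membership was read again with each library left out, and the left-out library was then set against the means of the remaining libraries. Those means had also chosen the rows. A share above that of all rows is thus bound up with the choice and is no test. Rows chosen without NF 14 had NF 14 at least 4-fold below both outer means in 80 of 97 cases. For NF 16 this held in 83 of 102 and for NF 18 in 87 of 112 cases, but for NF 20 it held in only 52 of 182. Among all rows with a maternal mean of 10 TPM or more, 5.02%, 5.34%, 4.07% and 3.06% met it in these 4 libraries.

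In the tailbud window the left-out library was at 10 TPM or more and at least 4 times the neurula mean in 28 of 154 rows for NF 23, 57 of 118 for NF 26, 93 of 107 for NF 30 and 63 of 84 for NF 33. Among all rows with that maternal minimum the same was true of 0.444%, 0.986%, 1.53% and 2.29%. A left-out pre-midblastula library met this limit in 83.8% to 92.9% of the rows chosen without it, against 31.4% to 32.4% of all rows with that maternal mean. NF 20 and NF 23 were thus the libraries in which the 4-fold dip and the 4-fold return were least often met.

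Before the midblastula no member had a called slope. The slope over the 5 libraries was called for 0 members rising and 0 falling (limma, adjusted p under 0.05), where 0.00461% and 0.115% of all 21670 rows were called. At an unadjusted p under 0.05, 1 member had a rising and 13 a falling slope, while 966 of all 21670 rows and 147 of the 4234 other dipping rows had a falling one. The median member was at 94.9% of its window mean at NF 7, against 102% at NF 0, while the median of the other dipping rows stayed between 99.2% and 101%. The member slopes had a median of -0.04 on the log2(TPM + 1) scale per library step. Per spike-in the median slope was 0.04, so its direction depended on the scaling.

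A part of the members was already lower at NF 9, before gastrulation. The median member had 96.6%, 91.0% and 85.8% of its pre-midblastula mean in the NF 8, 8.5 and 9 libraries. For the other dipping rows it was 100.4%, 97.9% and 94.5%. Per spike-in the member medians were 98.7%, 104% and 86.6%, so the lower level at NF 8.5 depended on the scale. At NF 9, 27 of 117 members, or 23.1%, lay at least 1.5-fold below NF 8. Among all tested rows the share was 10.1%, among the other dipping rows 9.45% and among lost rows 14.2%. Leaving out the 9 rows with zeros gave 22 of 108. Both stages are single libraries, so this step has no replicate check, and NF 8 sums to 1000000 as deposited while NF 9 does not. The column name of NF 8 also ends in rr and that of NF 9 does not, and an effect of this was not tested.

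In 17 members every value from a blastula stage to NF 20 was below 50% of the pre-midblastula mean, and 11 of these were free of zeros in the outer windows. A member of this kind stood at 100.4, 107, 108, 88.0 and 97.8 TPM in the 5 pre-midblastula libraries, then at 89.2, 70.4 and 42.4 TPM from NF 8 to NF 9. Gastrula libraries had 11.4 and 1.19 TPM, neurula libraries 2.29, 1.95, 4.93 and 5.02 TPM and tailbud libraries 16.0, 12.0, 14.7 and 16.0 TPM. Its gastrula values were lower than its blastula values by 3.65 on the log2 scale (standard error 0.50, limma adjusted p = 4.21e-05). Another was lower at each successive pre-midblastula stage, with 87.8, 65.4, 60.3, 39.5 and 36.7 TPM, and had 35.9, 18.6 and 15.7 TPM in the blastula libraries. In TPM these early members were also lower at NF 7 than at NF 0 in 11 of 11 cases. Their median was 68.2% of the NF 0 value. The other 97 members without zeros had a median of 96.9% and were lower in 56. Per spike-in every value is shifted by -0.24 at NF 0 and by 0.15 at NF 7 on the log2 scale. The counts and the order of stages given here were read in TPM only. The tailbud mean of the 11 ran from 14.6% to 141% of the maternal mean, with a median of 57.1%. The 11 were picked by their values, and these counts are descriptions.

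**Figure D2:**
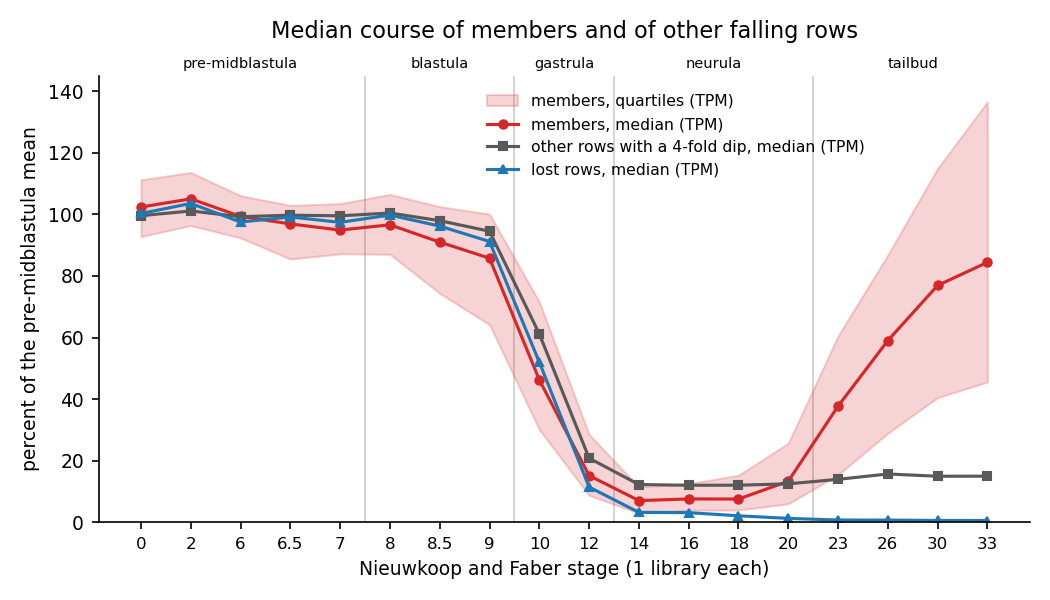
Median level at each stage, as percent of the pre-midblastula mean, for the members (red, with quartiles shaded), the other rows with a 4-fold dip (grey) and the lost rows (blue). All 3 medians were lower at NF 14 than at NF 9. By NF 33 the members' median was at 84.4%, the other dipping rows at 15.0% and the lost rows at 0.590%. Members and lost rows were chosen by their tailbud means, so nothing follows from these differences. A row can be in both the grey and the blue set.

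Most of the drop took place between NF 9 and NF 14. In the fit over all windows 78 of 117 members, or 66.7%, were lower in gastrula than in blastula libraries and 0 were higher (limma, adjusted p under 0.05). Over all 21670 rows 31.1% were lower and 11.2% higher. At an unadjusted p under 0.05, 89 members were lower and 0 higher, against 7855 lower and 2924 higher among all 21670 rows. Of the 4234 other dipping rows 3605 were lower at that threshold. The median change was -1.57 on the log2(TPM + 1) scale for members and -0.30 for all tested rows. Blastula and gastrula libraries were not used to choose the members, but a row chosen to be high before and low after them must pass down in between. The direction is therefore no finding, and the other dipping rows were lower in 3343 of 4234 cases, or 79.0%, with a median of -1.34. Lost rows were lower in 304 of 444, with a median of -1.63.

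The call leaned on NF 12 and on a spread estimated over all 5 windows. Without NF 12 only 14 of 117 members were called lower, a share near the 11.7% of all rows called lower in that fit. With the blastula and gastrula libraries fitted alone 0 members and 0.826% of all rows were called lower. In that fit 116 members were tested, and 80 of them were lower at an unadjusted p under 0.05. All rows were not counted at this threshold, so nothing follows from the 80. Median ratio scaling called 43 members lower, with 14.8% of all rows lower and 19.8% higher, so that more rows were higher than lower on that scale. The median was then -1.13 for members and 0.05 for all rows. Within the columns over 1000000, NF 10 lay below the mean of NF 8.5 and NF 9 in 109 members. The median log2 difference was -0.83, against -0.16 for all tested rows. Within the columns summing to 1000000, NF 12 lay below NF 8 in 115, with a median of -2.30, against -0.41 for all tested rows.

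The timing within this span is not set by the rule, but members were also chosen by a second limit on the neurula mean. The median member had 49.9% of its blastula mean at NF 10 and 19.2% at NF 12, against 63.4% and 21.8% for the other dipping rows and 55.5% and 12.0% for lost rows. At NF 10, 58 of 117 members, or 49.6%, lay at least 2-fold below the blastula mean, as did 30.5% of the other dipping rows, 43.5% of lost rows and 17.3% of all tested rows. NF 12 lay at least 2-fold below NF 10 in 71.8% of members, 75.2% of the other dipping rows and 27.5% of all tested rows. NF 10 is a single library, and these shares are descriptions. By NF 12, 108 of 117 members were under 50% of the maternal level and did not exceed it again up to NF 20. Per spike-in the number was 96. In TPM this state began at NF 10 in 40.2% and at NF 12 in 37.6% of members. Among the other dipping rows it began there in 31.8% and 55.5%. It began at NF 14 in 5.13% of members and 9.73% of the other dipping rows, so most rows of either set were there by NF 12.

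The library with the lowest value differed between members. Of the 98 members above 0 in every gastrula and neurula library, 5 had their lowest value in a gastrula library, 33 in the NF 14, 29 in the NF 16, 17 in the NF 18 and 14 in the NF 20 library. The dip and the return differed in size. Pre-midblastula means exceeded neurula means by a median of 9.25-fold, with quartiles of 6.00 and 14.9, in the 110 members not at 0 throughout the neurula. Tailbud means exceeded neurula means by a median of 5.37-fold, with quartiles of 4.58 and 7.15.

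The deepest dip among these 110 was 92.7-fold. This member stood at 105, 105, 113, 117 and 128 TPM before the midblastula and at 115, 119 and 112 TPM in the blastula. It had 50.4 and 5.02 TPM in the gastrula libraries, and then 0.960, 1.47, 0.701 and 1.78 TPM in the neurula libraries. In the tailbud libraries it stood at 6.98, 17.8, 18.4 and 10.0 TPM, so that 11.7% of the maternal level returned.

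Within the neurula window members were more often rising than falling. The slope over NF 14 to NF 20 was called rising for 42 of 117 members, or 35.9%, and falling for 8 (limma, adjusted p under 0.05). All rows were called rising in 13.4% and falling in 10.9% of cases. The other dipping rows were rising in 11.8% and falling in 14.0%, and of the 444 lost rows 8 were rising and 158 falling. The median slope was 0.22 per library step for members and 0.00 for all rows on the log2(TPM + 1) scale. The rule used only the mean of these 4 libraries, but the direction of a slope there is bound up with a rule that asks for low values followed by high ones.

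These calls depended on NF 20. Without it 6 members were rising and 3 falling, with a median slope of 0.03, and 1.68% of all rows were rising and 0.817% falling. With the neurula libraries fitted alone 0 members and 0 of all rows were called in either direction. In that fit 106 members were tested, of which 26 were rising and 7 falling at an unadjusted p under 0.05. All rows were not counted at this threshold, so nothing follows from these numbers. With the kind of column as a term 22 members were rising and 3 falling, against 5.50% and 2.63% of all rows. Within the columns summing to 1000000, NF 16 lay above NF 14 in 61 members and below it in 47. The median log2 difference was 0.03, near the 0.02 of all tested rows. Within the columns over 1000000, NF 20 lay above NF 18 in 79 and below it in 30. The median was 0.55, against 0 for all tested rows. At least 2-fold more was found at NF 20 than at NF 14 in 53 members, or 45.3%, against 18.5% of tested rows and 14.2% of the other dipping rows.

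The steepest neurula slope among the 108 members free of zeros in the outer windows was 0.94 per step (standard error 0.13, limma adjusted p = 0.000841). After a pre-midblastula mean of 25.3 TPM, this member stood at 1.33, 2.22, 7.63 and 13.8 TPM in the 4 neurula libraries. It had 30.4, 18.2, 29.6 and 34.8 TPM in the tailbud libraries. Its neurula values climbed at each stage, and its tailbud slope of 0.12 missed the threshold (limma adjusted p = 0.51).

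Through the tailbud stages many members went on rising, with a direction that the rule again bears on. The slope over NF 23 to NF 33 was called rising for 56 of 117 members, or 47.9%, and falling for 1 (limma, adjusted p under 0.05). All rows were called rising in 9.81% and falling in 16.7% of cases, and the other dipping rows in 14.0% and 7.65%. The falling member and 1 of the rising ones belong to the 9 rows with zeros. The median slope was 0.37 per library step for members and -0.05 for all rows. Per spike-in it was 0.58 for members and 0.13 for all rows, and 64 members were rising and 1 falling. On that scale 18.2% of all rows were rising and 3.11% falling. The called rises ran from 0.34 to 1.58 per step, with a median of 0.55.

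The count was lower without either end of the window, with 35 rising without NF 23 and 28 without NF 33. The share of all rows called rising was lower too, at 5.26% without NF 23 and 2.97% without NF 33. NF 23 is also the one tailbud column over 1000000, so 35 is the count within the other kind of column. Values at NF 33 were at least 2-fold those at NF 23 in 63 members, or 53.8%. Among tested rows it was 13.7% and among the other dipping rows 16.8%. The highest tailbud library was NF 23 in 1 member, NF 26 in 21, NF 30 in 24 and NF 33 in 71. All 3 tailbud steps went up in 55. The highest library and the upward steps were not counted over all rows, so these numbers only describe the members.

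**Figure D3:**
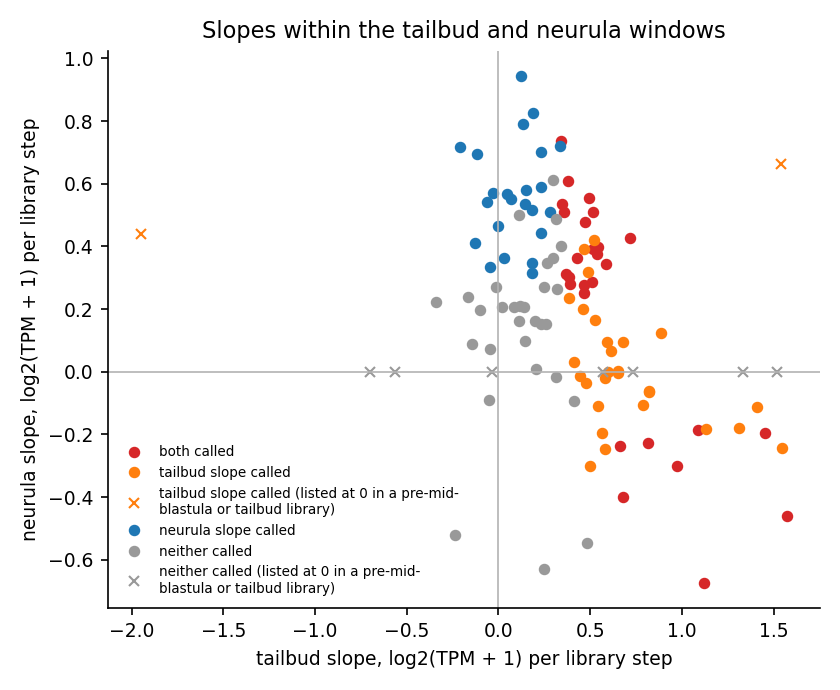
Slope over the tailbud libraries (horizontal) and over the neurula libraries (vertical) for each member, in log2(TPM + 1) per library step, coloured by whether limma called it at an adjusted p under 0.05. Of the members, 19 were rising in both windows and 23 were rising in the neurula with no call in the tailbud window. The 8 falling in the neurula were all rising in the tailbud window. Such joint calls were not counted over all rows, so these numbers only describe the members.

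Members therefore differed in when they came back. In 71 the first stage back at 50% of the tailbud mean was NF 23, in 34 it was NF 26 and in 8 NF 30, while 3 were there at NF 20 and 1 row with zeros at NF 12. Per spike-in NF 23 and NF 26 were about even, with 49 and 53 members. The step from NF 20 to NF 23 was at least 2-fold upward in 69 members, or 59.0%. Among tested rows it was 11.9% and among the other dipping rows 11.5%. The rule asked for a rise between the windows that hold these libraries, so nothing follows from the difference. The kind of column is the same for NF 20 and NF 23.

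The 4 most abundant members show this range. They are the 2 with the highest pre-midblastula mean and the 2 others with the highest tailbud mean. XeXenL6RMv10051776m came back first. It stood at 624.8, 660.2, 593, 635 and 586 TPM in the pre-midblastula libraries, 576, 536 and 460.2 TPM in the blastula and 269.9 and 100.5 TPM in the gastrula libraries. In the neurula it had 50.7, 50.1, 92.4 and 221 TPM, and in the tailbud libraries 497, 599.7, 547 and 314 TPM.

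This row was thus climbing from NF 18 and highest at NF 26. Its neurula slope was 0.72 per step (standard error 0.12, limma adjusted p = 0.00189), and its tailbud slope was -0.21 (standard error 0.12, limma adjusted p = 0.203). The difference of gastrula minus blastula libraries was -1.66 on the log2 scale (standard error 0.48, limma adjusted p = 0.0116).

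XeXenL6RMv10036451m returned to more than its maternal level. It stood at 445, 450.3, 411, 424 and 397 TPM before the midblastula, 409.8, 362 and 281 TPM in the blastula and 153 and 82.2 TPM in the gastrula libraries. It went on falling through the neurula, with 41.8, 40.6, 36.8 and 21.0 TPM, and then had 149, 364, 607 and 1199 TPM in the tailbud libraries. Its slope was -0.30 per step in the neurula (limma adjusted p = 0.00916) and 0.97 in the tailbud window (limma adjusted p = 9.85e-06), each with a standard error of 0.07. The tailbud mean was 136% of the pre-midblastula mean, and NF 33 alone reached 282% of it.

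XeXenL6RMv10000353m came back last of the 4. It was the most abundant member in the egg, with 754, 732.5, 751, 697 and 663 TPM before the midblastula. It had 705, 619.8 and 483 TPM in the blastula, 239.8 and 108 TPM in the gastrula and 58.6, 48.3, 41.7 and 38.6 TPM in the neurula libraries. NF 23 was at 42.0 TPM, within the neurula range, and the next stages were at 87.7, 278 and 844 TPM. Its tailbud slope was 1.45 per step (standard error 0.05, limma adjusted p = 2.01e-07). Its gastrula values, lower by 1.88 on the log2 scale than the blastula ones, missed the threshold (limma adjusted p = 0.0568).

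XeXenL6RMv10012515m regained the smallest part. It stood at 736, 682, 755, 613 and 652 TPM before the midblastula, 646, 553 and 498 TPM in the blastula and 239 and 72.3 TPM in the gastrula libraries. Neurula libraries had 42.3, 44.8, 31.5 and 27.1 TPM and tailbud libraries 74.2, 112, 207 and 284 TPM. The tailbud mean of 169 TPM was 24.6% of the pre-midblastula mean, and the tailbud slope was 0.66 per step (standard error 0.05, limma adjusted p = 2.28e-05).

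In 8 of the 108 members free of zeros in the outer windows, XeXenL6RMv10000353m among them, at least 1 tailbud library did not exceed every neurula library. In 7 of the 8 this was so at NF 23, a late return, while the remaining one stood at 10.6 TPM at NF 23, above its neurula values, and at 3.60 TPM at NF 26. In each of the 8 NF 33 was the highest tailbud library, at 3.78 to 9.75 times NF 26. The slope over the tailbud stages was called rising in 7 of the 8, and the neurula slope was called falling in 3 (limma, adjusted p under 0.05). One of them had a pre-midblastula mean of 53.5 TPM, then 3.85, 4.18, 1.67 and 1.08 TPM in the neurula and 1.04, 8.26, 21.7 and 56.8 TPM in the tailbud libraries. Its tailbud slope of 1.58 per step was the steepest called. These 8 were picked by their values, and their counts are descriptions.

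How much of the maternal level came back also varied. The tailbud mean was above the pre-midblastula mean in 35 members, between 50% and 100% of it in 40 and below 50% in 42. The median was 72.6%, with quartiles of 40.5% and 103%. Among the 108 members free of zeros in the outer windows the lowest was 11.1% and the highest 202%. The lowest belonged to the fifth most abundant maternal row of the set, with a mean of 371 ± 22.2 TPM before the midblastula (SD, n = 5), 11.9, 13.5, 4.51 and 7.85 TPM in the neurula libraries and 20.9, 32.8, 53.2 and 58.5 TPM in the tailbud libraries. The highest stood at 11.6, 12.3, 14.4, 12.3 and 16.4 TPM before the midblastula, 0.945, 1.02, 1.52 and 8.10 TPM in the neurula and 15.9, 34.5, 28.4 and 29.5 TPM in the tailbud libraries. By NF 33 itself 51 members exceeded their maternal mean.

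**Figure D4:**
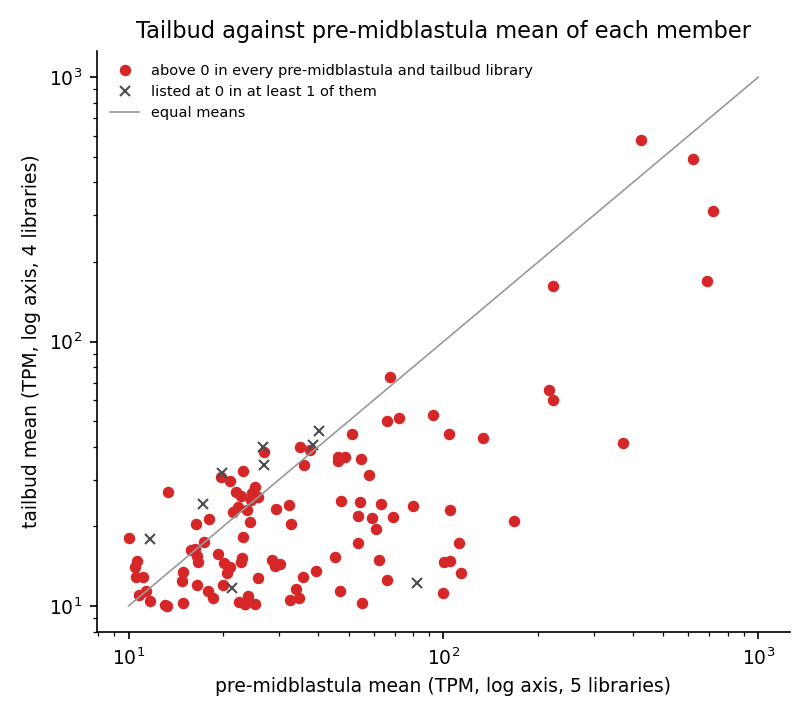
Tailbud mean against pre-midblastula mean for each of the 117 members, both in TPM on log axes, with a line at equal means. The members lie on both sides of the line, 35 of them above it, and the crosses are the 9 rows listed at 0 in a pre-midblastula or tailbud library. The lower left corner is empty because the rule asks for 10 TPM in both windows.

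The size of the return depended on the scale. The Xenopus total divided by the spike-in total was 1.40 ± 0.198 in pre-midblastula libraries (SD, n = 5), 1.85 ± 0.247 in neurula libraries and 3.59 ± 0.680 in tailbud libraries (SD, n = 4 each). On that scale 89 of the 117 members had a tailbud mean above the pre-midblastula mean, with a median of 195%. The median dip was 6.82-fold and the median return 10.8-fold in the 110 members with a neurula value. Of the 117 members 98 also met the rule per spike-in, and the other 19 missed the 4-fold dip. The rule applied per spike-in was met by 687 rows in all, so the 98 are 83.8% of the members and 14.3% of that list. With median ratio scaling 70 members met it among 136 rows, and the other 47 missed the dip.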

How the data were processed

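One table of 18 columns was used, with 1 whole-embryo library per NF stage. Per the submitters' processing notes the tools were RSEM, Bowtie, Trimmomatic and CASAVA 1.8.2, without their roles. Neither the labels nor the file header name the genome build. In 9 columns the values deposited by the authors were TPM summing to 1000000. The other 9 deposited columns held a signal on the same scale that summed to 1.48% to 2.72% more, for a reason not given. The design had assumed TPM throughout. The 92 spike-in rows were left out and each library was rescaled to 1000000, which is called TPM in the text. Depth is unknown, so no counting interval is given.

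Values were tested as log2(TPM + 1), a scale that understates changes of low rows, with limma 3.58.1 in R 4.3.3 (intensity trend, Benjamini-Hochberg adjustment over all 21670 rows averaging 1 TPM or more, threshold 0.05). Every member passed this filter, since the rule alone ensures it. Gastrula and blastula libraries were compared in a fit of 5 window means over all 18 libraries, with 13 residual degrees of freedom. Slopes per library step came from a fit with a mean and a slope for each window, with 8. Both fits were run on simulated data, whose noise was independent between libraries and held no effect of the kind of column. Such a run cannot check the calls against drift between stages or a batch. Spike-in scaling divided each library by its spike-in total, and median ratio scaling used size factors from rows with no 0.

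The members, comparison sets and tests were chosen with earlier results of these data known. The rule for named rows was the 2 members with the highest pre-midblastula mean and the 2 others with the highest tailbud mean. Other members are described by their values. Marker lists that needed gene symbols were not run, since 0 rows matched the RefSeq gene table of Xenopus_laevis_v10.1. Python 3.11.15 was used for counts and figures.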

Additional observations from a re-analysis of the deposited data

Results flagged for a closer look

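Within each window the highest and the lowest library were compared with the rest, for 3 summaries of the members and for the TPM of the 4 named rows, in the pre-midblastula, neurula and tailbud windows. Of 21 pairs of window and measure 1 stood out, and chance gives about 1.05. NF 20 was high among the neurula libraries in the median member level, at 13.3% of the pre-midblastula mean against 7.06% to 7.59% at NF 14, 16 and 18.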

How the results depend on the processing

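Of 137 alternative values, 102 lay within 1.5 times of the reported count and 35 did not. Among the 102 were 14 for members higher in the gastrula, 15 for rising and 12 for falling pre-midblastula slopes. In those the count stayed at 0, which shows no stability of a result. All of the alternative values are counts of calls or of rows. Of the medians behind them, that of the members' pre-midblastula slopes was -0.04 in TPM and 0.04 per spike-in, and that of the gastrula change over all rows was -0.30 in TPM and 0.05 with median ratio scaling. No paired analysis was possible because no stage was sampled again and the labels give no replicate numbers. Members lower in gastrula than in blastula libraries numbered 78, and 43 with median ratio scaling, 14 with array weights, 0 with both windows fitted alone and 14 to 90 with a library left out, the lowest without NF 12. The shares of all rows called lower were 31.1%, and 14.8%, 7.92%, 0.826% and 11.7% to 38.5% in the same order. Members higher were 0 in every alternative run. For the pre-midblastula slope, falling members numbered 0, and 1 with pseudocount 5, 9 with array weights and 2 with the window fitted alone. All rows were called falling in 0.115%, and in 0.125%, 2.95% and 0.421% of cases in the same order. Leaving out a library gave 0 to 0, and rising members were 0 in every alternative run. For the neurula slope, with 42 rising and 8 falling, pseudocount 5 gave 23 rising, array weights 16 and 2, the kind of column as a term 22 and 3, the window fitted alone 0 and 0, and spike-in scaling 3 falling. Of all rows 13.4% were rising and 10.9% falling in the main fit. Pseudocount 5 gave 11.6% rising, array weights 4.22% and 3.43% and the kind of column 5.50% and 2.63%. The window fitted alone gave 0% and 0%, and spike-in scaling 3.23% falling. Leaving out a library gave 6 to 49 rising and 3 to 10 falling, the lowest without NF 20. Without NF 20, 1.68% of all rows were rising and 0.817% falling. For the tailbud slope, with 56 rising and 1 falling, leaving out a library gave 28 to 55 rising and 0 to 1 falling, the lowest without NF 33, and 35 without NF 23. All rows were called rising in 9.81% of cases, in 2.97% without NF 33 and in 5.26% without NF 23. The 1 falling row, which has zeros, was 0 with pseudocount 0.1, no filter, median ratio scaling, the kind of column as a term, the window fitted alone and NF stage number, and 2 were falling with array weights. In these settings 5.08% to 16.9% of all rows were falling, against 16.7% in the main fit. The rule was met by 117 rows, and by 687 per spike-in, 234 with a 3-fold and 66 with a 5-fold limit, 237 with a minimum of 5 TPM and 52 with 20 TPM. The values as deposited gave 106 rows with 73 of the 117 members, and window medians 132 rows with 91. With a library left out it was met by 84 to 182 rows, the lowest without NF 33 and the highest without NF 20. Leaving out a library or fitting 1 window alone leaves fewer libraries for the test. For the other changes the cause was not tested.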

Other observations

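In 3 cases a pair of members had row names with consecutive numbers. The labels do not say what the order of these numbers stands for. The members of the first pair had means of 59.2 and 79.9 TPM before the midblastula, 19.6 and 32.2 TPM in the gastrula, 2.76 and 3.79 TPM in the neurula and 21.5 and 23.8 TPM in the tailbud window. In both of them NF 26 was the highest tailbud library, at 30.7 and 37.9 TPM, and NF 30 was lower, at 21.7 and 19.9 TPM. Those of the second pair had 21.4 and 35.1 TPM before the midblastula, 2.49 and 5.09 TPM in the neurula and 11.7 and 39.8 TPM in the tailbud window, and those of the third 11.7 and 32.3 TPM, 1.34 and 4.78 TPM, and 10.4 and 24.0 TPM. Whether such pairs share reads was not tested.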
